A study of Mus musculus with 9 samples.

Results

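The COMPASS-type histone methyltransferase complexes were examined through the RNA of 10 genes, matched by symbol among the 32286 genes of the feature table. These were the catalytic subunits Kmt2c, Kmt2d, Kmt2a, Kmt2b, Setd1a and Setd1b, the subunits Kdm6a, Ncoa6 and Paxip1 of the Kmt2c and Kmt2d complexes, and the shared core subunit Wdr5. The data were droplet-based 5′ single-cell RNA libraries of 9 primary tumours, with 3 WT, 3 Kmt2c KO and 3 Kmt2d KO tumours. Each grew in the mammary fat pad of a BALB/c mouse from injected 168FARN cells, a mouse mammary tumour line of the same strain, and the mouse cells around the tumour cells were unedited in every group.

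Knockout cells were made by transient delivery of Cas9 with a pool of 3 guides and were sorted as a pool, so that they are not clones and the 3 tumours of a group come from 1 edited population. All tumour cells, WT included, then received an H2B–mCherry reporter, whose transcript is listed as H2BMc. The library table gives each library's genotype as a letter, C, D or X, which was read as Kmt2c KO, Kmt2d KO or WT by the way the study named its contrasts, so that the groups rest on this reading. The numbers 1 to 3 only name libraries and do not match WT, Kmt2c KO and Kmt2d KO tumours to each other. Since the labels do not tie the libraries of a group to separate cultures, p-values measure the spread between tumours of 1 cell population.

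Methylation of histone H3 at lysine 4 marks active promoters and enhancers. Mammals have a family of methyltransferase complexes for this mark, which share a core of WDR5, RBBP5, ASH2L and DPY30 and differ in the catalytic subunit and its partners. KMT2C (MLL3) and KMT2D (MLL4) chiefly monomethylate enhancers and are often mutated in breast cancer, KMT2A (MLL1) and KMT2B (MLL2) act at subsets of promoters, and SETD1A and SETD1B supply most of the trimethylation at active promoters. KDM6A (UTX), which travels with KMT2C and KMT2D, removes methyl groups from lysine 27 of the same histone.

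The guides are shown because their sites decide what the RNA counts of Kmt2c and Kmt2d can say about the knockouts. All 6 are printed 5′ to 3′ with the protospacer in lower case and the neighbouring PAM of the NCBIM37 mouse genome in capitals. Protospacers were read from the forward oligonucleotides of the study's list, in which the reverse oligonucleotide of Kmt2d guide 2 repeats the forward one of Kmt2c guide 1, so that guide 2 of Kmt2d rests on its forward entry alone. In that annotation Kmt2c and Kmt2d carry the older names Mll3 and Mll2, and both lie on the minus strand. This build is older than the mm10 build of the count files, and the positions below hold for NCBIM37 alone.
Kmt2c guide 1: tctttgcgaggccggccccgAGG
Kmt2c guide 2: ggtgactaggatgtcgtcggAGG
Kmt2c guide 3: ggggaagcgccatctttgcgAGG
Kmt2d guide 1: acggtaaatccaggtcggagTGG
Kmt2d guide 2: gaaatcctcatccgagaacaTGG
Kmt2d guide 3: gagtggtcacccttcccccgGGG

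The Kmt2c protospacers lie on chromosome 5, guide 1 at chr5:25004241-25004260 on the plus strand, guide 2 at chr5:25004359-25004378 on the minus strand and guide 3 at chr5:25004229-25004248 on the plus strand. All 3 fall in exon 1 of the 59 exons of transcript Mll3-001, and the expected cuts are 111, 7 and 123 bases past the start codon. The same exon is coding in transcripts Mll3-003, Mll3-007 and Mll3-202 and is annotated as 5′ UTR in Mll3-201. The Kmt2d protospacers lie on the plus strand of chromosome 15, at chr15:98701571-98701590, chr15:98701464-98701483 and chr15:98701588-98701607. They fall in exon 1 of the 55 exons of Mll2-201, which this annotation gives as 5′ UTR, 27, 134 and 10 bases after the transcript start. The annotated start codon lies in exon 2, between 4329 and 4453 genomic bases further downstream. Edits at these sites leave the exons that follow in place, so a targeted gene's RNA level does not check its genotype label. The 5′ libraries also count a transcript near the end that was cut. For the cultured knockout cells, the paper reported mutant reads at the targeted regions, in most reads for Kmt2c and in all for Kmt2d. Some Kmt2c reads were thus unedited. By immunoblot the paper found less of the targeted protein in the knockout cells. The RNA counts used here do not test either result.

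Tumour cells were taken as the 16707 cells with at least 1 H2BMc UMI among 58645 cells of over 500 and under 7500 genes and under 15% mitochondrial UMIs. A UMI, or unique molecular identifier, stands for 1 captured RNA molecule. The libraries held 361 to 925 such cells in WT, 2244 to 3434 in Kmt2c KO and 1851 to 2817 in Kmt2d KO tumours, with 9779795 to 47951145 UMIs in each summed library. WT tumour cells were deeper, at medians of 13729 to 24081 UMIs per cell against 8661 to 14789 in the knockouts, and the mitochondrial limit took 7.78% to 33.8% of the barcodes of a library, the most in WT 3. Krt8, a keratin of glandular epithelium, reached 382 counts per 1000000 UMIs (CPM) in tumour cells that met no host-cell gate, whereas its usual partner Krt18 was near 0. With an H2BMc or Krt8 UMI and no host-cell gate met as the rule, every library held more cells. WT 3 then held 634 against 361, Kmt2c KO 1 8413 against 3434 and Kmt2d KO 3 8529 against 2817. Cells without an H2BMc UMI are therefore not all host cells. Of 84658 barcode sequences, 4365 recurred in more than 1 library. Kmt2d KO 2 stood apart from its group, with a chi-square per degree of freedom over genes of 59.2 and 77.3 against Kmt2d KO 1 and 3, which gave 11.4 against each other. This measure grows with depth, and in Kmt2c KO it was 21.9 to 38.3 and in WT 4.18 to 6.21.

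Levels below are CPM, the UMIs of a gene per 1000000 UMIs, summed over the tumour cells of a library. A 5′ UMI count depends on how well a transcript's start is captured, so levels are compared between samples within a gene and never between genes. Differences are log2 fold changes with their SE from edgeR's quasi-likelihood test on the summed counts, adjusted by Benjamini-Hochberg over all genes tested and called at an adjusted p below 0.05.

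Whether the RNA of the complex genes differed between the WT and the knockout tumour cells is the first question the design allows. Gene loss cannot be told apart from other differences between the cell pools. Of the 10 genes, Kmt2d alone passed the test, with more RNA in Kmt2c KO than in WT tumour cells. In Kmt2d KO its log2 fold change against WT was similar, 0.54 against 0.51, but did not pass. Kmt2c itself did not stand apart in either knockout. Against Kmt2c KO, Kmt2d KO tumours passed for none of the 10, where 0.0781% of all genes were called.

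**Figure D1:**
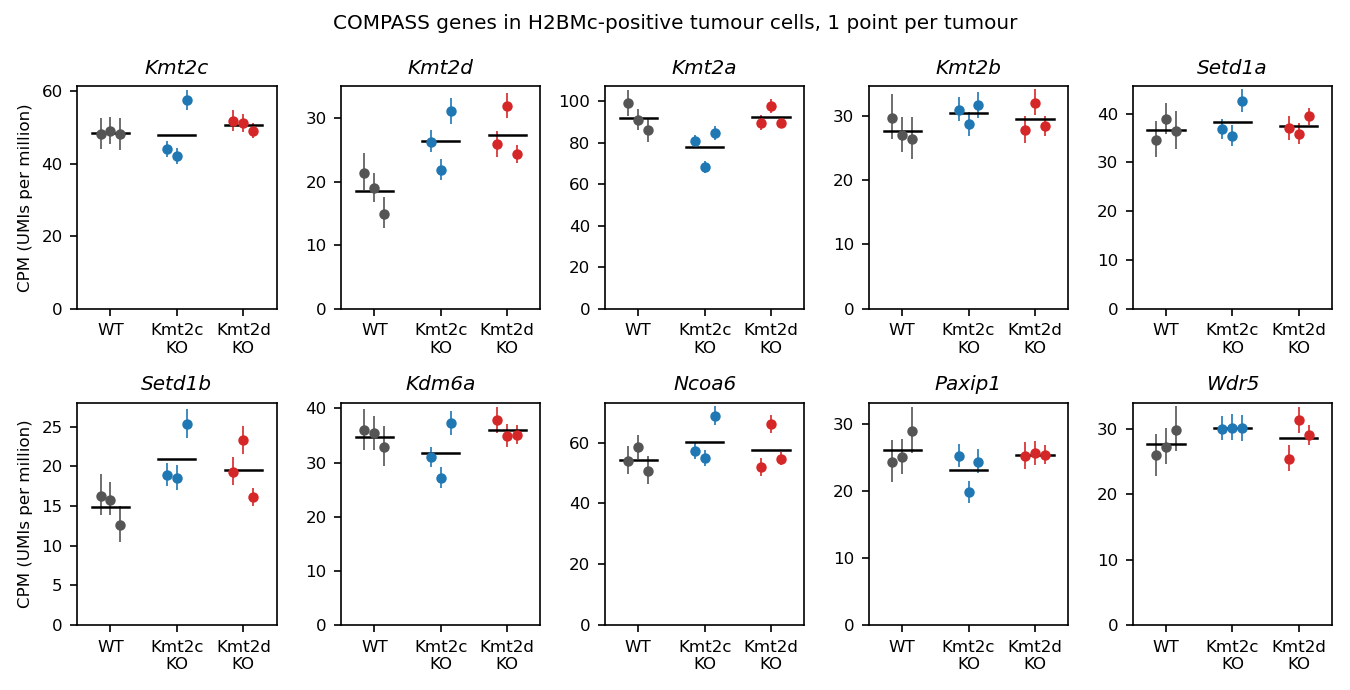
Levels in H2BMc-positive tumour cells for each of the 10 genes (vertical axes, CPM, from 0) in WT, Kmt2c KO and Kmt2d KO tumours. Points are tumours, vertical lines the 95% Poisson interval of the count, horizontal lines group means. The 3 WT points of Kmt2d, 14.9 to 21.4 CPM, lie below all knockout points, whereas Kmt2c overlaps between all groups.

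Kmt2c, the enhancer methyltransferase deleted in the first knockout, stood at 48.1, 49.1 and 48.1 CPM in WT tumours 1 to 3. Its levels were 43.9, 42.0 and 57.6 CPM in Kmt2c KO tumours, and 51.8, 51.1 and 49.0 CPM in Kmt2d KO tumours. The groups overlapped, and the widest spread was within Kmt2c KO, whose tumour 3 was the highest of all 9. Kmt2c KO differed from WT by −0.03 ± 0.10 (SE) on the log2 scale, with an adjusted p of 0.878 and a 95% interval of −0.22 to 0.17. That interval covers the spread between these libraries and not the choice of cells, since with cells of 5000 to 20000 UMIs alone the difference was −0.36 (adjusted p = 0.159). The Kmt2d KO tumours differed from WT by 0.03 ± 0.10 (adjusted p = 0.908). In counts, Kmt2c rested on 470 to 2352 UMIs per library.

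Kmt2d, its paralogue, stood at 21.4, 19.0 and 14.9 CPM in WT tumours. It reached 26.3, 21.8 and 31.1 CPM in Kmt2c KO and 25.9, 31.9 and 24.3 CPM in Kmt2d KO tumours. All 6 knockout tumours were thus above all 3 WT tumours, Kmt2c KO 2 only just, and the tumours in which Kmt2d itself was targeted were among them. The group means were 18.5 ± 3.28 (SD, n = 3) in WT, 26.4 ± 4.62 in Kmt2c KO and 27.4 ± 4.02 CPM in Kmt2d KO. Kmt2c KO tumours exceeded WT by 0.51 ± 0.15 on the log2 scale, or 1.42-fold, which passed (adjusted p = 0.0401). The larger value of Kmt2d KO tumours, 0.54 ± 0.15, did not pass (adjusted p = 0.104), and without Kmt2d KO 2, the library that stood apart, it was 0.42 and did not pass either. Between the knockouts it was 0.03 ± 0.14 (adjusted p = 0.947). Both knockouts were compared with the same 3 WT tumours, which held 146 to 274 Kmt2d UMIs against 634 to 1164 in the knockouts.

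The background to that call is wide. Of 14089 genes tested, 18.7% were called in Kmt2c KO against WT, 9.57% as higher, and 2.27% in Kmt2d KO against WT. The 1 called gene of 10 in Kmt2c KO and 0 of 10 in Kmt2d KO are to be read against those shares. Groups did not overlap for 42.1% of all genes in Kmt2c KO against WT and for 23.4% in Kmt2d KO against WT, so that absence of overlap is common here. 4 of the 10 genes, Kmt2d, Setd1b, Kmt2a and Wdr5, had no overlap in the first comparison and Kmt2d was the 1 in the second. The median log2 fold change of the 10 genes was 0.09 in Kmt2c KO and 0.02 in Kmt2d KO, beside medians within 0.01 of 0 over all genes.

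The Kmt2d call in Kmt2c KO depended on single libraries and on the choice of cells. Without Kmt2c KO 3 the difference was 0.41 (adjusted p = 0.131), and without WT 3, the tumour of fewest cells, it was 0.40 (adjusted p = 0.136). It was also lost without Kmt2c KO 1 (adjusted p = 0.0765), without WT 1 (0.0512) and without WT 2 (0.0972). With cells of 5000 to 20000 UMIs alone, which brings the depth of WT and knockout cells closer, it fell to 0.23 (adjusted p = 0.479). With at least 2 H2BMc UMIs it was 0.42 (adjusted p = 0.0632), and with an H2BMc or Krt8 UMI as the tumour-cell rule 0.44 (adjusted p = 0.0750). The direction was the same under all 20 alternatives, with values of 0.23 to 0.62, and 10 of them lost the call. DESeq2 called Kmt2d in both knockouts, at adjusted p of 0.0140 and 0.0289, and with it 20.8% and 4.99% of all genes tested.

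**Figure D2:**
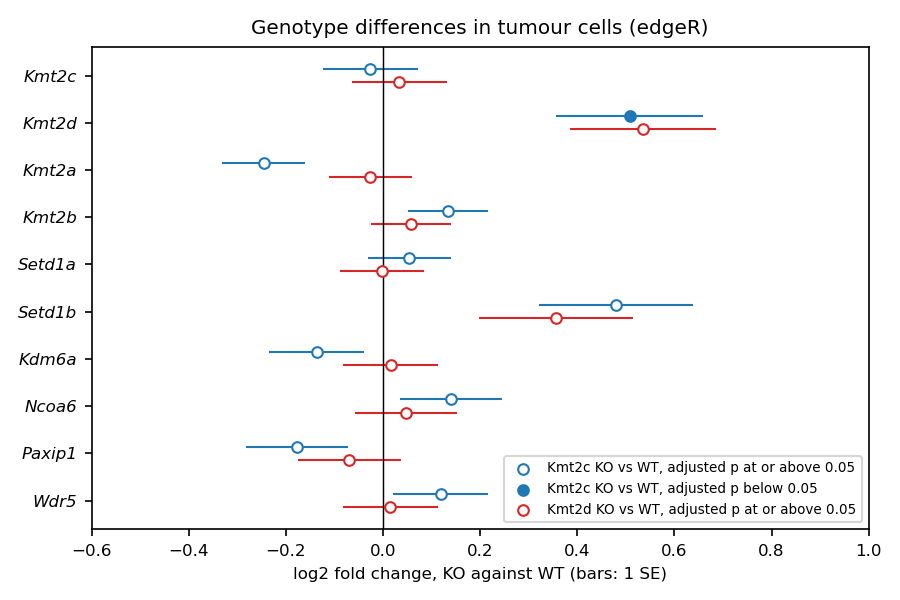
Log2 fold changes of the 10 genes in tumour cells, Kmt2c KO (blue) and Kmt2d KO (red) against WT, with bars of 1 SE from edgeR. The filled point, Kmt2d in Kmt2c KO at 0.51, is the one value past an adjusted p of 0.05, and both knockouts share the 3 WT tumours.

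Other values are given beside the Kmt2d level. Of those shown by group, only the share of ribosomal protein genes separated all 6 knockout tumours from WT. H2BMc, the transcript that defines the tumour cells, stood at 72.7 to 113 CPM in WT, at 142 to 153 CPM in Kmt2c KO and at 90.6 to 117 CPM in Kmt2d KO tumours. Since every cell was chosen for at least 1 H2BMc UMI, this level depends on the gate and on the UMIs per cell. Median UMIs per cell were 8661 to 11824 in Kmt2c KO and 13729 to 24081 in WT tumours. The part of cell selection and depth in the H2BMc difference was not tested. Ribosomal protein genes took 20.7% to 21.3% of tumour-cell UMIs in WT and 17.7% to 19.7% in the knockouts. Neat1, a nuclear-retained RNA, stood at 71.6 to 74.4 CPM in WT and at 86.8, 122 and 181 CPM in Kmt2c KO tumours 1 to 3. In Kmt2d KO tumours Neat1 was 71.5, 134 and 66.5 CPM. The 2 tumours of highest Kmt2d, Kmt2d KO 2 and Kmt2c KO 3, were also the 2 of highest Malat1, Kcnq1ot1 and Neat1, all nuclear RNAs. The part of H2BMc level and of ribosomal and nuclear RNA in the Kmt2d difference was not tested. Markers of other cells differed in level in the tumour-cell sums. Ptprc of leukocytes stood at 0 to 0.30 CPM in WT, 0.264 to 1.44 CPM in Kmt2c KO and 0.327 to 0.754 CPM in Kmt2d KO tumours, with 5 of the 6 knockout tumours above all WT. Pecam1 of endothelium stood at 0.30 to 2.45 CPM in WT, 0.558 to 0.865 CPM in Kmt2c KO and 0.736 to 2.72 CPM in Kmt2d KO tumours, and the Kmt2d difference was 0.55 (adjusted p = 0.0403) where cells with a UMI of Ptprc, Pecam1 or Cdh5 were left out. In tumour cells that met no host-cell gate, 5 macrophage markers summed to 14.0 to 23.6 CPM, of which Cd14 held 8.48 to 16.1 CPM, and 4 fibroblast markers to 50.6 to 95.9 CPM, of which Pdgfrb held 23.3 to 63.8 CPM. The part of these cells in the Kmt2d difference was not tested.

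The number of Kmt2d UMIs per Kmt2c UMI within a library does not depend on scaling between libraries. It was 0.445, 0.388 and 0.311 in WT tumours, 0.598, 0.520 and 0.540 in Kmt2c KO tumours and 0.501, 0.624 and 0.495 in Kmt2d KO tumours. The means were 0.381 ± 0.067 (SD, n = 3), 0.552 ± 0.041 and 0.540 ± 0.073. All 6 knockout ratios lay above the 3 WT ratios, and the 2 knockout groups overlapped. No test was run on the ratio, since it repeats the counts above.

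**Figure D3:**
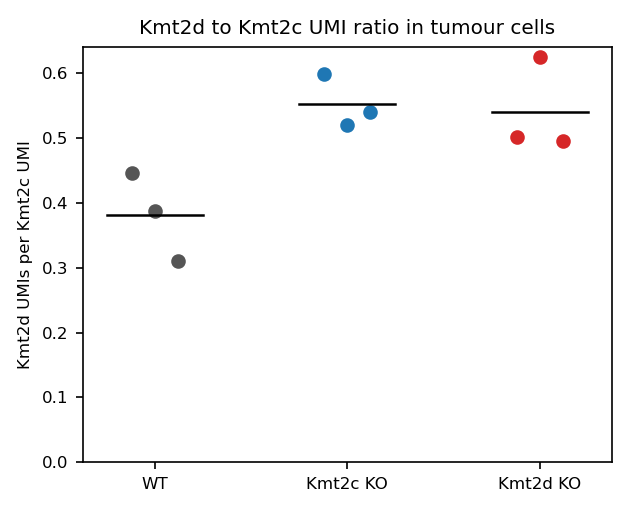
Kmt2d UMIs per Kmt2c UMI in the tumour cells of each library (vertical axis, a ratio from 0), with group means as lines. WT tumours lie between 0.311 and 0.445 and knockout tumours between 0.495 and 0.624.

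Kmt2a and Kmt2b, the promoter-directed pair, did not pass in either knockout. Kmt2a stood at 99.1, 91.0 and 86.1 CPM in WT, at 80.8, 68.1 and 84.8 CPM in Kmt2c KO and at 89.7, 97.7 and 89.7 CPM in Kmt2d KO tumours. Its Kmt2c KO tumours lay below both other groups without overlap, and the log2 fold change was −0.25 ± 0.08 against WT (adjusted p = 0.0687). Kmt2d KO against Kmt2c KO gave 0.22 ± 0.08 (adjusted p = 0.212), in a comparison where 18.1% of all genes had groups without overlap. The Kmt2c KO difference of Kmt2a passed with DESeq2 (adjusted p = 0.0497), without Kmt2d KO 2 (0.0397) and with cells of 5000 to 20000 UMIs, where it was −0.48 (0.0431). Kmt2b stood at 29.7, 26.9 and 26.4 CPM in WT, 30.9, 28.7 and 31.7 CPM in Kmt2c KO, and 27.8, 32.0 and 28.4 CPM in Kmt2d KO tumours. These groups overlapped, and neither difference from WT, 0.13 ± 0.08 (adjusted p = 0.278) and 0.06 ± 0.08 (adjusted p = 0.782), passed.

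Setd1a and Setd1b, the catalytic subunits of the SET1 complexes, differed from each other in how they varied. Setd1b stood at 16.3, 15.8 and 12.6 CPM in WT, at 18.9, 18.5 and 25.3 CPM in Kmt2c KO and at 19.3, 23.3 and 16.1 CPM in Kmt2d KO tumours. All Kmt2c KO tumours were above WT, whereas Kmt2d KO 3 fell between WT tumours. The log2 fold changes against WT were 0.48 ± 0.16 (adjusted p = 0.0592) and 0.36 ± 0.16 (adjusted p = 0.285), neither past the threshold. The first passed in 5 of 20 alternatives, among them DESeq2 (adjusted p = 0.0342) and the fits without Kmt2d KO 2 (0.0170) or Kmt2d KO 3 (0.0407). Setd1a stood at 34.6, 38.9 and 36.5 CPM in WT, 36.8, 35.5 and 42.6 CPM in Kmt2c KO, and 37.0, 35.9 and 39.5 CPM in Kmt2d KO tumours. Its groups overlapped throughout. Kmt2c KO differed from WT by 0.05 ± 0.09 (adjusted p = 0.692), and the interval for Kmt2d KO ran from −0.17 to 0.17 (adjusted p = 0.995).

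Among the subunits particular to the Kmt2c and Kmt2d complexes, none passed in either knockout. Kdm6a, the lysine 27 demethylase, stood at 36.0, 35.4 and 32.9 CPM in WT, at 30.9, 27.2 and 37.3 CPM in Kmt2c KO and at 37.8, 34.9 and 35.1 CPM in Kmt2d KO tumours. The groups overlapped, and the differences from WT were −0.14 ± 0.10 (adjusted p = 0.356) and 0.02 ± 0.10 (adjusted p = 0.959). Their 95% intervals were −0.33 to 0.06 and −0.18 to 0.21. With cells of 5000 to 20000 UMIs the Kmt2c KO difference was −0.39 (adjusted p = 0.0934), outside the first interval. Ncoa6, a coactivator subunit, stood at 54.1, 58.4 and 50.8 CPM in WT, 57.2, 54.9 and 68.9 CPM in Kmt2c KO and 52.0, 66.1 and 54.8 CPM in Kmt2d KO tumours. It overlapped between groups, at 0.14 ± 0.10 (adjusted p = 0.376) and 0.05 ± 0.10 (adjusted p = 0.865). Paxip1 (PTIP), which has a further role in the response to DNA damage, stood at 24.3, 25.1 and 28.9 CPM in WT, 25.3, 19.8 and 24.4 CPM in Kmt2c KO, and 25.2, 25.7 and 25.4 CPM in Kmt2d KO tumours. It also overlapped, at −0.18 ± 0.11 (adjusted p = 0.265) and −0.07 ± 0.11 (adjusted p = 0.794).

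Wdr5, the core subunit that all 6 methyltransferases share, was narrow in range. It stood at 25.9, 27.3 and 29.9 CPM in WT, 30.0, 30.2 and 30.1 CPM in Kmt2c KO and 25.4, 31.3 and 29.0 CPM in Kmt2d KO tumours. The Kmt2c KO tumours lay just above WT, within 0.12 ± 0.10 (adjusted p = 0.421), and Kmt2d KO overlapped it at 0.01 ± 0.10 (adjusted p = 0.962). In cells without a mitotic marker UMI the Kmt2c KO difference was 0.32 and passed (adjusted p = 0.0463), and with cells of 5000 to 20000 UMIs it was 0.40 and did not pass.

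Further genes of the pathway followed the same order of comparisons. Of 22 such genes, 21 could be tested in tumour cells, and Pagr1a, a further subunit of the Kmt2c and Kmt2d complexes, held too few UMIs. In Kmt2c KO against WT 3 of the 21 passed, 2 higher and 1 lower, with a median log2 fold change of 0.09, and in Kmt2d KO against WT none passed (median 0.07). With 18.7% and 2.27% of all genes called in these comparisons, the counts say nothing particular of the pathway. Of the 3 other core subunits, Dpy30 fell by 0.53 on the log2 scale in Kmt2c KO (SE 0.15, adjusted p = 0.0363). Its levels were 111, 99.9 and 110 CPM in WT and 83.2, 77.2 and 61.7 CPM in Kmt2c KO tumours, with no overlap. Kdm5c, a demethylase that removes the lysine 4 mark, rose by 0.43 ± 0.10 (adjusted p = 0.0175), from 36.2, 31.8 and 33.6 CPM to 43.6, 41.0 and 52.7 CPM. Kmt2e, a family member without known methyltransferase activity, rose by 0.32 ± 0.10 (adjusted p = 0.0434), from 275, 285 and 246 CPM to 308, 349 and 355 CPM.

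These 3 calls also depended on libraries and on the choice of cells. Of 20 alternatives, 8 lost the call of Dpy30, 6 that of Kdm5c and 9 that of Kmt2e. With cells of 5000 to 20000 UMIs Dpy30 was at −0.09 (adjusted p = 0.833), Kdm5c at 0.15 (adjusted p = 0.580) and Kmt2e at 0.03 (adjusted p = 0.910). The Dpy30 call was lost without any 1 of Kmt2c KO 2 (adjusted p = 0.0691), Kmt2c KO 3 (0.107), WT 1 (0.103), WT 2 (0.0763) and WT 3 (0.113). For Kdm5c the adjusted p was 0.0598 without Kmt2c KO 3, 0.0752 without WT 2 and 0.0551 without WT 3. For Kmt2e it was 0.114 without Kmt2c KO 2, 0.0919 without Kmt2c KO 3, 0.0574 without Kmt2d KO 3, 0.113 without WT 1, 0.0639 without WT 2 and 0.130 without WT 3.

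In the other lists the largest differences did not pass. In Kmt2c KO against WT these were Tasp1, the protease that cleaves KMT2A and KMT2B, at 0.29 ± 0.10 (adjusted p = 0.0708), and Cxxc1 of the SET1 complexes at −0.10 ± 0.09 (adjusted p = 0.458). The acetyltransferase gene Crebbp was at 0.27 ± 0.11 (adjusted p = 0.115) and the demethylase gene Kdm6b at 0.41 ± 0.14 (adjusted p = 0.0596). Tasp1 passed in 2 of 20 alternatives and Kdm6b in 5. Among Kmt2d KO tumours, Hcfc1 of the KMT2A and KMT2B complexes was at 0.31 ± 0.11 (adjusted p = 0.177) and Kdm5b, a lysine 4 demethylase, at 0.37 ± 0.16 (adjusted p = 0.288). In Kmt2d KO against Kmt2c KO none of the 21 passed, against 0.0781% of all genes.

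Across the 9 tumours, some members rose and fell together, given here as a description over points that share libraries, depth and genotype groups. On log2(CPM + 1) the Pearson correlation was 0.94 between Kmt2d and Setd1b, 0.86 between Kmt2d and Kmt2b, 0.87 between Kmt2c and Kdm6a and 0.82 between Kmt2a and Kdm6a, but 0.42 between Kmt2c and Kmt2d. The first of these are among the highest pairs. Other pairs ran against each other, down to −0.50 between Kdm6a and Wdr5 and −0.39 between Kmt2a and Wdr5. The share of all gene pairs at such values was not computed. Among 6662 genes with a mean of at least 20 CPM, the 3 most like Kmt2d were Tnks (0.99), Eva1c (0.99) and Tnrc6c (0.98). Klhdc10 (0.92) and Fam91a1 (0.90) were among those most like Kmt2c. Those most like Kdm6a were Ttc28 (0.93), Chic1 (0.92) and Pcm1 (0.91).

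The tumours also held unedited mouse cells, in which the same genes could be measured. Cells without an H2BMc or Krt8 UMI were gated as endothelial cells, macrophages or T cells by at least 2 markers each, and libraries with at least 20 cells of a type were used. This gave 30 to 65 endothelial cells and 23 to 157 macrophages in each of the 9 libraries, but T cells in 3 libraries alone, with 157 cells in Kmt2c KO 2, 52 in Kmt2c KO 3 and 41 in Kmt2d KO 1. Markers that no gate used bore the names out. Summed over 5 genes, endothelial markers stood at 4687 CPM in the endothelial gate and at 0 to 9.87 CPM in the other types. The 5 macrophage markers reached 7365 CPM in macrophages and 18.5 to 55.3 CPM elsewhere, and the 6 T cell markers 2459 CPM in T cells and 0.779 to 17.3 CPM elsewhere. Cell types were compared with tumour cells in 1 edgeR fit with library as a block, in which 9 of the 10 genes could be tested and Wdr5 could not.

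Kmt2c and Kmt2d were both higher in macrophages and T cells than in tumour cells, and Kmt2d was also higher in endothelial cells, where Kmt2c did not pass, though the difference between the pair was not tested. Kdm6a was higher in macrophages and T cells, and Kmt2a in T cells. Of the 9 genes tested, 2 were called in endothelial cells, 4 in macrophages and 5 in T cells, where 65.5%, 64.8% and 45.9% of 8986 genes were called. The members' counts are to be read against those shares. How many of all genes did not overlap between cell types was not counted. Their median log2 fold changes were −0.01, 0.42 and 0.64, beside −0.00, −0.09 and −0.16 over all genes.

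**Figure D4:**
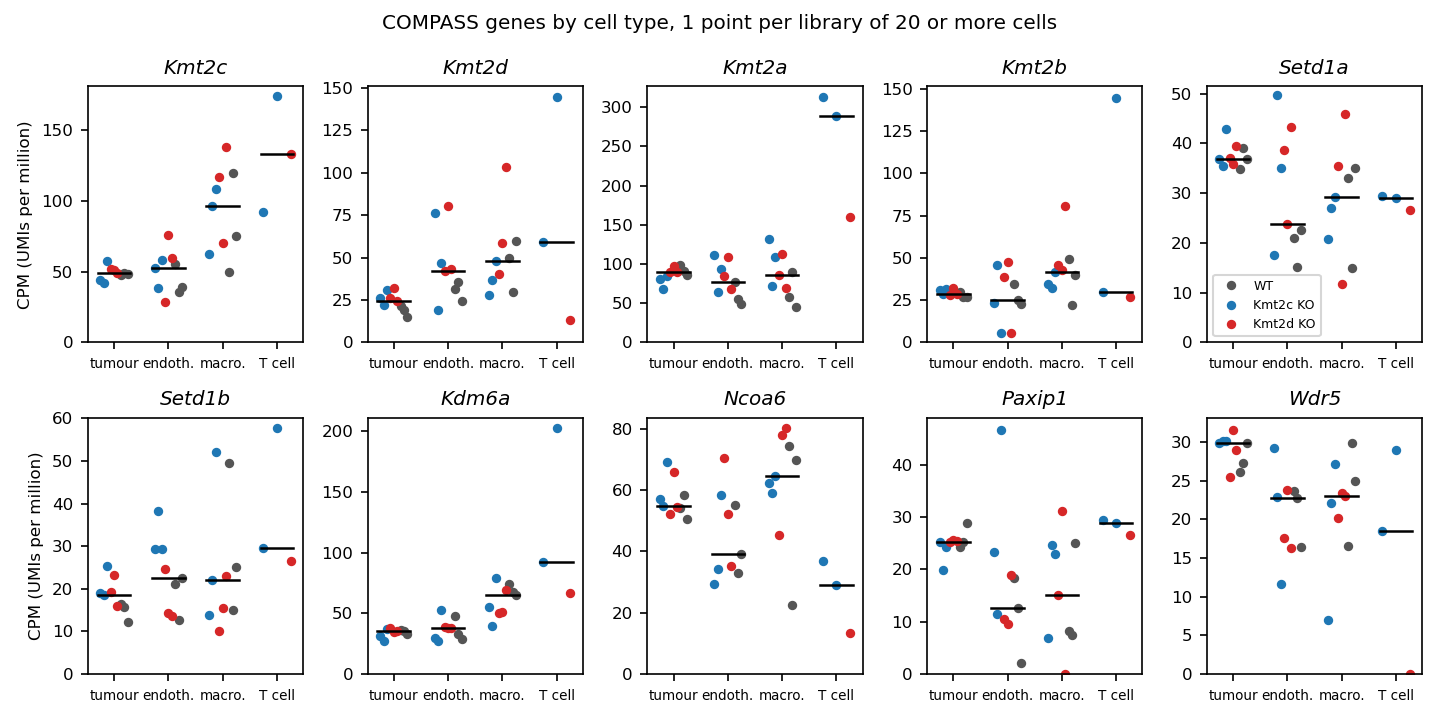
Levels of each of the 10 genes (vertical axes, CPM, from 0) in tumour cells, endothelial cells, macrophages and T cells. Each point is a library with at least 20 cells of the type, coloured by genotype, and lines are medians. Kmt2a in T cells stands at 159 to 314 CPM in 3 libraries, above its levels in all other sums.

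Kmt2c ranged from 42.1 to 57.7 CPM in tumour cells, with a median of 49.0, and from 49.6 to 138 CPM in macrophages, with a median of 95.9. The difference was 0.90 ± 0.15 on the log2 scale (adjusted p = 2.88e-06). In T cells it stood at 92.2, 174 and 133 CPM in Kmt2c KO 2, Kmt2c KO 3 and Kmt2d KO 1, or 1.12 ± 0.27 above tumour cells (adjusted p = 0.000927). Endothelial cells, at 28.2 to 76.0 CPM with a median of 52.7, lay within 0.04 ± 0.15 of tumour cells (adjusted p = 0.849), and macrophages exceeded them by 0.87 ± 0.19 (adjusted p = 0.000204), a comparison in which 2 of the 9 members and 51.8% of all genes were called. In order of pooled level, Kmt2c thus went from endothelial and tumour cells to macrophages and T cells, with no difference past the threshold within either pair.

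Kmt2d ranged from 14.8 to 31.8 CPM in tumour cells, with a median of 24.3. Endothelial cells stood at 19.1 to 80.7 CPM with a median of 42.3, or 0.89 ± 0.20 higher on the log2 scale (adjusted p = 0.000207). Macrophages stood at 27.7 to 103 CPM with a median of 48.0, or 0.96 ± 0.21 higher (adjusted p = 0.000218). T cells stood at 59.0, 145 and 13.3 CPM in Kmt2c KO 2, Kmt2c KO 3 and Kmt2d KO 1, on 16, 10 and 1 UMIs, and their difference of 1.36 ± 0.39 passed (adjusted p = 0.00429). That call was lost without Kmt2c KO 2 (adjusted p = 0.113) and without Kmt2c KO 3 (adjusted p = 0.0870). Tumour cells had the lowest pooled level of the 4 types, and no difference among the other 3 passed the threshold.

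Kmt2a, the founding MLL gene with a known role in blood cells, stood apart in T cells. It stood at 314, 289 and 159 CPM in the T cells of Kmt2c KO 2, Kmt2c KO 3 and Kmt2d KO 1, and at 67.9 to 98.8 CPM in tumour cells. The difference was 1.53 ± 0.24 (adjusted p = 2.68e-06), and T cells also exceeded endothelial cells by 1.68 ± 0.26 (adjusted p = 2.8e-06) and macrophages by 1.55 ± 0.25 (adjusted p = 1.55e-05). In those comparisons 3 of the 9 members were called each time, against 39.2% and 26.6% of all genes. Endothelial cells and macrophages, with medians of 76.4 and 86.0 CPM, were at −0.14 ± 0.15 (adjusted p = 0.405) and −0.02 ± 0.16 (adjusted p = 0.934) against tumour cells.

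Kdm6a stood at 27.1 to 37.9 CPM in tumour cells, 26.7 to 52.6 CPM in endothelial cells and 39.4 to 79.3 CPM in macrophages. Macrophages exceeded tumour cells by 0.79 ± 0.14 (adjusted p = 1.02e-05) and endothelial cells by 0.64 ± 0.18 (adjusted p = 0.00276). In T cells it reached 92.2, 202 and 66.4 CPM, or 1.62 ± 0.24 above tumour cells (adjusted p = 1.02e-06). T cells exceeded macrophages by 0.83 on the log2 scale, a call that was lost without Kmt2c KO 2 (adjusted p = 0.243) or Kmt2c KO 3 (adjusted p = 0.100).

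Few members were lower in host cells. Paxip1 was lower in endothelial cells, at 2.05 to 46.8 CPM with a median of 12.7 against 19.9 to 29.0 CPM in tumour cells (−0.66 ± 0.28, adjusted p = 0.0364). That call rested on 1 to 8 UMIs per library of endothelial cells. Paxip1 had a value in 7 alternatives alone, where Kmt2c had one in 16. Of the 7, 2 lost the call, among them the fit without Kmt2d KO 1 (adjusted p = 0.0612). Setd1a was lower in macrophages, at 11.7 to 45.9 CPM with a median of 29.2 against 34.8 to 42.8 CPM (−0.50 ± 0.20, adjusted p = 0.0263), and was lost without Kmt2d KO 2 (adjusted p = 0.0581) or Kmt2c KO 3 (adjusted p = 0.0726). Ncoa6 was lower in T cells, at 36.9, 28.9 and 13.3 CPM against 50.6 to 69.1 CPM (−1.05 ± 0.37, adjusted p = 0.0205), on 10, 2 and 1 UMIs. Without Kmt2d KO 1 or Kmt2c KO 3 its adjusted p was 0.0515 and 0.0969. Kmt2b and Setd1b were called in none of the 3 types.

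Host cells held fewer UMIs, so their members rest on few counts. Median UMIs per cell were 3178 to 8744 in endothelial cells, 1757 to 4266 in macrophages and 1152 to 1614 in T cells, against 8661 to 24081 in tumour cells, and a library held as few as 1 UMI of Kmt2d in T cells or of Paxip1 in endothelial cells, and 0 of Paxip1 in macrophages or of Wdr5 in T cells. Ribosomal protein genes took 9.20% to 13.2% of UMIs in macrophages and 8.98% to 14.1% in endothelial cells against 17.7% to 21.3% in tumour cells, summed in the same way. The part of depth and RNA makeup in these differences was not tested.

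Of the further pathway genes, 17 could be tested in host cells, and 10 were called in endothelial cells, 10 in macrophages and 6 in T cells. Since 65.5%, 64.8% and 45.9% of all genes were called there, these counts are no result about the pathway, and the genes below are given as single values. Psip1 (LEDGF), a chromatin tether of the KMT2A complex, was lower in endothelial cells (−1.42 ± 0.14, adjusted p = 1.02e-10) and macrophages (−1.47 ± 0.15, adjusted p = 2.81e-10). Bod1 was lower in all 3 types, by 1.13, 1.97 and 2.43 on the log2 scale. Dpy30, Tasp1 and Kmt2e were called lower in both endothelial cells and macrophages. Kdm5c was higher by 0.94 ± 0.16 in endothelial cells (adjusted p = 5.11e-06) and Kdm6b by 0.95 ± 0.18 in macrophages (adjusted p = 2.66e-05), whereas Crebbp was higher by 0.83 ± 0.23 in T cells (adjusted p = 0.00375). The acetyltransferase genes Crebbp and Ep300 were called higher in macrophages as well, at 0.53 and 0.58.

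Host cells carry no knockout, and their counts allow the genotype of the tumour around them to be compared. In endothelial cells of Kmt2c KO tumours Kmt2d was at 0.58 ± 0.46 against WT (adjusted p = 0.535), and in those of Kmt2d KO tumours at 0.81 ± 0.41 (adjusted p = 0.589). In macrophages it was at −0.23 ± 0.43 (adjusted p = 0.846) and 0.38 ± 0.44 (adjusted p = 0.835). Kmt2c was at 0.21 and 0.32 in endothelial cells and at 0.23 and 0.34 in macrophages. None of the 7 members tested in endothelial cells or the 5 tested in macrophages was called, where 5.53% and 5.43% of genes were called in Kmt2c KO, and 0.038% and 0% in Kmt2d KO. For the last of these, edgeR called 0 genes, DESeq2 called 6, and 414 had an unadjusted p below 0.05. In T cells the comparison could not be fitted, since no WT library held 20 cells.

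The difference between genotype effects in host and tumour cells was tested itself, a test added after the data were seen. For Kmt2d it was 0.02 on the log2 scale in endothelial cells against tumour cells (Kmt2c KO against WT) and 0.21 for Kmt2d KO against WT. In macrophages it was −0.82 (adjusted p = 0.432) and −0.33. The member nearest the threshold was Kmt2a in Kmt2c KO, at 0.89 ± 0.32 in macrophages against tumour cells (adjusted p = 0.147) and 0.79 ± 0.29 in endothelial cells (adjusted p = 0.221). No member passed in either cell type or genotype, where 1.81% and 2.35% of genes were called for Kmt2c KO and 0.0442% and 0.387% for Kmt2d KO. So it is not shown that the Kmt2d difference belongs to tumour cells alone.

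Tumour cells were also compared by cell division. Cells with UMIs of at least 2 of the 5 markers Mki67, Top2a, Cdk1, Birc5 and Cenpf were called mitotic (148 to 1167 per library), and those with none served as the comparison (159 to 1853). The gate took 5228 of 16707 tumour cells, so mitotic is a name for marker-positive cells and not for cells in mitosis alone. In the 9 tumours, with library as a block, 9 of the 10 genes passed, 7 lower and 2 higher in mitotic cells. Most genes moved with this split, since 74.4% of 13205 genes were called, 38.6% as lower and 35.8% as higher, so that the count of members called says little about them. Their median log2 fold change was −0.23, beside −0.04 over all genes. How many of all genes moved in the same direction in all 9 tumours, or without overlap, was not counted for this split.

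**Figure D5:**
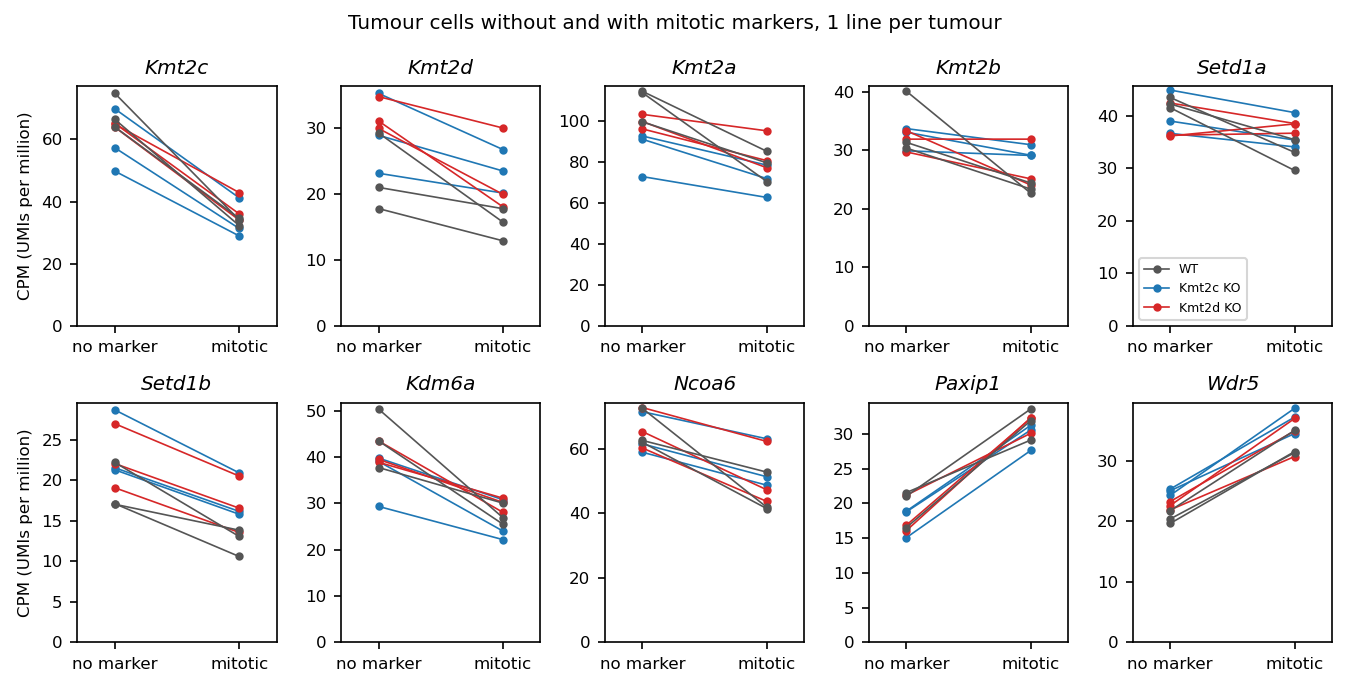
Levels of each of the 10 genes (vertical axes, CPM, from 0) in tumour cells without a mitotic marker and in mitotic tumour cells, with 1 line per tumour coloured by genotype. Kmt2c falls in all 9 tumours, from 49.8 to 74.9 CPM to 28.9 to 42.9 CPM, while Paxip1 and Wdr5 rise in all 9.

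Of the 7 genes that fell, Kmt2c fell most. It ranged from 28.9 to 42.9 CPM with a median of 34.1 in mitotic cells and from 49.8 to 74.9 CPM with a median of 65.0 in cells without a marker. The log2 fold change was −0.75 ± 0.04 (adjusted p = 5.02e-11). Kmt2d went from a median of 29.3 CPM (17.8 to 35.3) to one of 20.0 CPM (12.9 to 30.1), or −0.33 ± 0.06 (adjusted p = 0.000147), lower in 9 of 9 tumours. The 95% intervals of the paralogues, −0.83 to −0.66 and −0.46 to −0.21, did not overlap, though the difference between them was not tested.

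Kdm6a fell by 0.40 on the log2 scale (SE 0.05, adjusted p = 3.71e-06), from a median of 39.5 to one of 28.1 CPM. Setd1b fell by 0.35 (SE 0.05, adjusted p = 5.4e-06), Ncoa6 by 0.26 (SE 0.05, adjusted p = 0.000135) and Kmt2a by 0.21 (SE 0.04, adjusted p = 0.0003), each in 9 of 9 tumours. Kmt2b fell by 0.15 (SE 0.06, adjusted p = 0.0302), a call that was lost without WT 1 (adjusted p = 0.0616), WT 2 (0.0572) or Kmt2d KO 3 (0.102). Setd1a did not pass, at −0.04 ± 0.05 (adjusted p = 0.513), and was lower in 7 tumours and higher in 2.

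Paxip1 and Wdr5 went the other way in 9 of 9 tumours. Paxip1 ranged from 15.1 to 21.5 CPM in cells without a marker and from 27.6 to 33.6 CPM in mitotic cells, a rise of 0.87 ± 0.06 (adjusted p = 3.95e-10). Wdr5 ranged from 19.6 to 25.3 CPM and from 30.7 to 38.7 CPM, a rise of 0.70 ± 0.04 (adjusted p = 8.99e-11).

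Mitotic cells were also the deeper cells, with medians of 13851 to 37931 UMIs per cell against 6906 to 16379. The nuclear RNA Malat1 had a median of 2299 CPM in them against 6572 CPM, Neat1 one of 48.7 against 124 CPM, and mitochondrial genes one of 2.64% against 3.96% of UMIs. With cells of 5000 to 20000 UMIs in both arms, 4 of the 10 genes were called, against 59.9% of all genes. This limit did not match depth, as mitotic cells stayed the deeper ones in every library but Kmt2d KO 2. In Kmt2c KO 1 the medians were 13047 against 8198 UMIs per cell, and in WT 2 they were 15561 against 10674. WT tumours 1 to 3 kept 19, 90 and 21 mitotic cells under this limit. Kmt2c was then at −0.41 (adjusted p = 1.5e-06) and Setd1b at −0.22 (adjusted p = 0.0137), while Paxip1 and Wdr5 were still higher. Kmt2d was at −0.01 (adjusted p = 0.906), Kdm6a at −0.16 (adjusted p = 0.0547) and Ncoa6 at −0.13 (adjusted p = 0.0709), and Kmt2a, Kmt2b and Setd1a changed sign. The part of nuclear RNA content in these differences was not tested.

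Of the 21 further pathway genes, 15 were called between these cells, 7 higher and 8 lower in mitotic cells, with a median of −0.05. The counts say little of these genes, as 74.4% of all genes were called, 35.8% higher and 38.6% lower. Core and KMT2A-complex subunits were among the higher ones, with Dpy30 at 1.00 ± 0.04 (adjusted p = 2.85e-13) and Psip1 at 0.70 ± 0.03 (adjusted p = 1.87e-12). Bod1 rose by 0.63 ± 0.04 (adjusted p = 3.41e-10). Demethylase genes were among the lower ones, with Kdm5b at −2.61 ± 0.10 (adjusted p = 1.15e-13) and Kdm6b at −1.43 ± 0.08 (adjusted p = 1.54e-11). Kmt2e was at −0.83 ± 0.04 (adjusted p = 3.49e-12), and the acetyltransferase gene Crebbp at −0.49 ± 0.04 (adjusted p = 2.45e-08). Whether these effects differed between genotypes was tested as well, after the data were seen, and no member passed, where 3.1% of genes were called for Kmt2c KO against WT and 0.47% for Kmt2d KO against WT.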

How the data were processed

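Droplet-based 5′ libraries of 9 tumours were deposited by the authors as raw UMI counts per gene and cell barcode, made with Cell Ranger 7.0.1 on mm10 per the labels' processing notes. The sources used here do not give whether introns were counted or depth was equalised when libraries were joined. The barcode suffix gave the library, and the aggregation table's genotype letter, read from the names of the study's comparisons, gave the group. Cells were filtered and gated as described in the text. No doublet caller was run, and host cells that met 2 gates were left out. UMI counts were summed per library and cell class and tested with edgeR 4.0.16 in R 4.3.3 (filterByExpr, TMM, quasi-likelihood test), with all groups in 1 fit per cell class and library as a block where classes of 1 library were compared. SEs are the size of the log2 fold change divided by the square root of F. DESeq2 1.42.0 and other alternatives are given at the end. Sums, ratios and Poisson intervals, which cover counting error only, were computed in Python 3.11.15. Libraries of a group differed beyond sampling noise (chi-square per degree of freedom at least 4.18), so none was counted as a duplicate. The fits were also run on simulated counts. Changes planted there were larger than the tumour-cell genotype differences reported here, so recovery of differences of that size was not checked. The 10 genes are named in the comparisons, and pathway genes where called (at most 8 by smallest adjusted p) or where largest in their list. These genes and lists were chosen with earlier results of these data known.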

Additional observations from a re-analysis of the deposited data

How the results depend on the processing

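The depth of single libraries limits these results. WT tumours held 361 to 925 tumour cells and 146 to 274 Kmt2d UMIs, and host cells held as few as 0 UMIs of a gene per library, so that small differences there were not detectable. The mitochondrial limit took up to 33.8% of a library's barcodes. Guides, knockout pools and sorting were shared within each knockout group, and pool and genotype cannot be told apart. No paired analysis was possible because the barcodes and the library table carry no replicate number of the labels, and equal numbers do not tie tumours together. Alternatives were recomputed for the members and pathway genes that the text names. Markers, nuclear RNAs and the genes most like a member were not recomputed.

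Of the recomputed values per gene that did not leave out a library, 903 kept their direction and their side of the threshold, 75 lost a call, 21 gained one and 58 changed sign. Of those that left out 1 library, 1108 kept both, 51 lost a call, 20 gained one and 37 changed sign. The cause of these changes was not tested. The ratio of Kmt2d to Kmt2c UMIs was recomputed only without the mitochondrial limit and with at least 2 H2BMc UMIs. It moved by less than 1 SD in 6 of 6 recomputed group means. With at least 2 H2BMc UMIs, however, the highest WT ratio (0.4677 in WT 2) came close to the lowest knockout ratio (0.4685 in Kmt2d KO 3).

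The number of members called in Kmt2c KO against WT tumour cells was 1 as reported. With DESeq2, which called 20.8% of all genes, it was 3. It was 2 without the filter on low counts and 2 with only the groups compared in the fit. It was 0 without TMM factors, with at least 2 H2BMc UMIs, or with an H2BMc or Krt8 UMI as the tumour-cell rule. It ranged from 0 to 3 over fits that left out 1 library. In Kmt2d KO against WT, where none was called, it was 1 with DESeq2 and 1 without the filter, both times Kmt2d (adjusted p = 0.0289 and 0.0340). DESeq2 called 4.99% of all genes there. In mitotic against non-mitotic cells the number was 4 with cells of 5000 to 20000 UMIs, where 59.9% of all genes were called. For the other fits no share over all genes is given. Those counts show how the calls moved and are no result about the members.

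Between cell types, the members called in endothelial against tumour cells numbered 1 with DESeq2, 0 in Kmt2c KO libraries and 1 in Kmt2d KO libraries, and 1 to 3 without 1 library. In macrophages against tumour cells they numbered 2 in Kmt2c KO and 2 in Kmt2d KO libraries. In macrophages against endothelial cells they numbered 1 in Kmt2c KO and 0 in Kmt2d KO libraries. In Kmt2d KO libraries, which hold 1 library with T cells, T cells gave 0 against each of tumour cells, endothelial cells and macrophages. T cells against macrophages gave 1 with at least 3 gate markers, 1 without the filter, and 1 to 3 without 1 library. T cells against tumour cells gave 3 to 5 without 1 library. Shares over all genes under these fits are not given, and the shares of the main fit do not apply to them. These counts show how the calls moved and are no result about the members.

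Values that changed sign were small in most cases. With cells of 5000 to 20000 UMIs, Kmt2c KO against WT gave −0.057 for Kmt2b, −0.079 for Setd1a, −0.15 for Ncoa6, 0.0024 for Paxip1, −0.061 for Crebbp and −0.17 for Kdm6b. Kmt2d KO against WT gave −0.076 for Kmt2c, −0.032 for Kmt2b, −0.079 for Kdm6a, −0.13 for Ncoa6, 0.042 for Dpy30, 0.035 for Bod1 and −0.045 for Kdm6b. Kmt2d KO against Kmt2c KO gave 0.025 for Kmt2b, 0.014 for Ncoa6, −0.0079 for Paxip1 and 0.13 for Kdm6b. Mitotic against non-mitotic cells gave 0.013 for Kmt2a, 0.045 for Kmt2b and 0.079 for Setd1a. Without cells that had a mitotic marker UMI, Kmt2c KO against WT gave −0.022 for Kmt2b and −0.033 for Setd1a. In Kmt2d KO against WT these cells gave −0.072 for Kmt2c, −0.086 for Kmt2b, −0.094 for Kdm6a and 0.053 for Bod1, and in Kmt2d KO against Kmt2c KO 0.0098 for Ncoa6 and −0.0004 for Paxip1.

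With at least 2 H2BMc UMIs, Kmt2d KO against Kmt2c KO gave −0.0399 for Kmt2d and 0.014 for Setd1a, and Kmt2d KO against WT gave 0.016 for Setd1a and −0.086 for Kdm6a. With an H2BMc or Krt8 UMI, Setd1a was at 0.0041 between the knockouts and at 0.0203 in Kmt2d KO against WT, where Kmt2c was at −0.0395 and Kdm6a at −0.0054. Without TMM factors Kmt2a was at 0.0047 and Setd1a at 0.0296 in Kmt2d KO against WT. Without the filter these were 0.0039 and 0.0275, Kmt2c was at 0.012 in Kmt2c KO against WT, and the difference in the Kmt2d effect of Kmt2c KO between endothelial and tumour cells was −0.038. Setd1a in Kmt2d KO against WT was 0.0021 without the mitochondrial limit and 0.0019 with only the groups compared.

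In cell types, Kmt2c in endothelial against tumour cells was −0.042 without TMM factors, −0.065 without the filter, −0.11 with at least 3 gate markers and −0.16 in WT libraries. In Kmt2c KO libraries Kmt2a was 0.15 in endothelial cells and 0.31 in macrophages, and in macrophages Ncoa6 was −0.026 and Kdm5b 0.15. Kmt2a in macrophages was 0.021 with DESeq2. With at least 3 gate markers Ncoa6 was −0.082 in macrophages, Kmt2b −0.23 in T cells and Kmt2c −0.20 in macrophages of Kmt2c KO against WT tumours. In Kmt2d KO libraries T cells gave −1.06 for Kmt2d and −0.34 for Kmt2b.

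Leaving out 1 library at a time gave these ranges where a value changed sign. In Kmt2c KO against WT, Kmt2c ranged from −0.14 to 0.053. In Kmt2d KO against WT, Kdm6a ranged from −0.021 to 0.044, Ncoa6 from −0.0525 to 0.12, Wdr5 from −0.043 to 0.092, Kmt2a from −0.059 to 0.016, Setd1a from −0.054 to 0.053, Paxip1 from −0.13 to 0.027 and Dpy30 from −0.25 to 0.0016. In Kmt2d KO against Kmt2c KO, Kmt2c ranged from −0.012 to 0.18, Kmt2d from −0.0905 to 0.13 and Setd1b from −0.26 to 0.0038. Against tumour cells, endothelial cells ranged from −0.10 to 0.077 for Kmt2c and −0.22 to 0.088 for Kmt2b, and macrophages from −0.14 to 0.093 for Kmt2a and −0.019 to 0.11 for Ncoa6. T cells ranged from −0.15 to 1.17 for Kmt2b, −0.26 to 0.14 for Paxip1 and −0.56 to 1.01 for Hcfc1.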

Other observations

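Tumour cells that the mitochondrial limit removed, with at least 15% mitochondrial UMIs, were not tested between groups, and their pooled levels are given with 95% Poisson intervals that cover counting error only. Kmt2c stood at 123 CPM (95 to 156) in WT on 66 UMIs, 90.2 CPM (60.0 to 130) in Kmt2c KO on 28 UMIs and 106 CPM (86.3 to 128) in Kmt2d KO on 105 UMIs. Kmt2d stood at 81.9 CPM (59.5 to 110) in WT on 44 UMIs, 67.7 CPM (41.9 to 103) in Kmt2c KO on 21 UMIs and 82.4 CPM (65.5 to 102) in Kmt2d KO on 82 UMIs. These levels lie above those of the retained tumour cells in each group, and the Kmt2d intervals of the 3 groups overlap. Most of the WT counts come from WT 3, with 106 of such cells against 30 in WT 1 and 9 in WT 2.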
